A study of Mus musculus with 10 samples.

Results

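Mitosis and cytokinesis genes are 38 of the 23337 genes in the authors' comparison of mouse cardiomyocytes with and without dnMKL1. They were chosen by symbol as mitotic kinases, cyclins A and B, spindle checkpoint, kinetochore, chromosomal passenger, spindle motor, cytokinesis and condensin genes, and all 38 had a p-value and an adjusted p-value. The study compared a GFP group and a dnMKL1 group, with 5 biological replicates in each. Both groups were wild-type mice given an AAV9 virus at 5e+08 viral genomes per gram on postnatal day 1, with cells taken on postnatal day 14. The GFP group received AAV9-cTNT-GFP and the dnMKL1 group AAV9-cTNT-dnMKL1-GFP, so that every animal carried the virus and GFP, and the cTNT (cardiac troponin T) promoter limits expression of the cargo to cardiomyocytes. dnMKL1 is a dominant-negative form of MKL1 (MRTF-A), a coactivator of serum response factor (SRF). Hearts were digested with collagenase, and cells were sorted by fluorescence before RNA was amplified.

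Cell division runs on a wave of gene expression that peaks between the second gap phase and mitosis. CDK1 with cyclins A and B drives entry into mitosis, Aurora and Polo-like kinases build the spindle, the checkpoint holds the anaphase-promoting complex until chromosomes are attached, and the centralspindlin and anillin proteins then divide the cell. Mouse cardiomyocytes leave the cycle in the days after birth, and many of them finish with a round of nuclear division that skips cytokinesis. Many genes of this wave share promoter elements, the cell cycle genes homology region (CHR), bound by the DREAM and MuvB complexes, and the CCAAT box, bound by NF-Y.

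The members were weakly expressed on postnatal day 14, and few of them differed between the groups by more than the spread between libraries. In the authors' deposited table their base means, the average normalized count over 10 libraries, ran from 11.2 for Cdc25c to 531 for Cenpa with a median of 68.1, and they summed to 0.0272% of all normalized counts. Of the 38 members, 1 was higher in dnMKL1 cardiomyocytes (Cenpa) and 1 was lower (Cenpf) at an adjusted p under 0.05 in the authors' deposited table. That is 2.63% of the members in each direction, where 16.6% of the 14056 genes tested were called higher and 17.4% lower (34.1% in either direction). Over all genes 2340 were higher and 2452 lower, a split that became 5685 higher and 927 lower when the groups were scaled to equal totals. Under that scaling 40.4% of all genes were called higher and 6.6% lower, and 3 members were called higher and 0 lower. Only 3 members had an unadjusted p under 0.05.

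The log2 fold changes of dnMKL1 against GFP were negative for 33 members and positive for 5 in the authors' deposited table, a split that became 23 and 15 when the groups were scaled to equal totals. Their median was -0.35 (SE of a single member 0.42 at the median), beside 0.02 over all genes tested, of which 48.0% were negative. Scaling to equal totals, which adds 0.29 to every gene, brought the members' median to -0.06. The totals include abundant genes that fell, such as Myh6, from an implied 768373 to 421599 normalized counts. Median centring, which shifts every gene by -0.004, left the split at 33 and 5 and the median at -0.36. Which scaling is right was not tested. On the authors' scaling a mean weighted by the inverse squared SE was -0.02, in which Cenpa alone held 35.6% of the weight, and it was -0.19 without Cenpa.

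**Figure D1:**
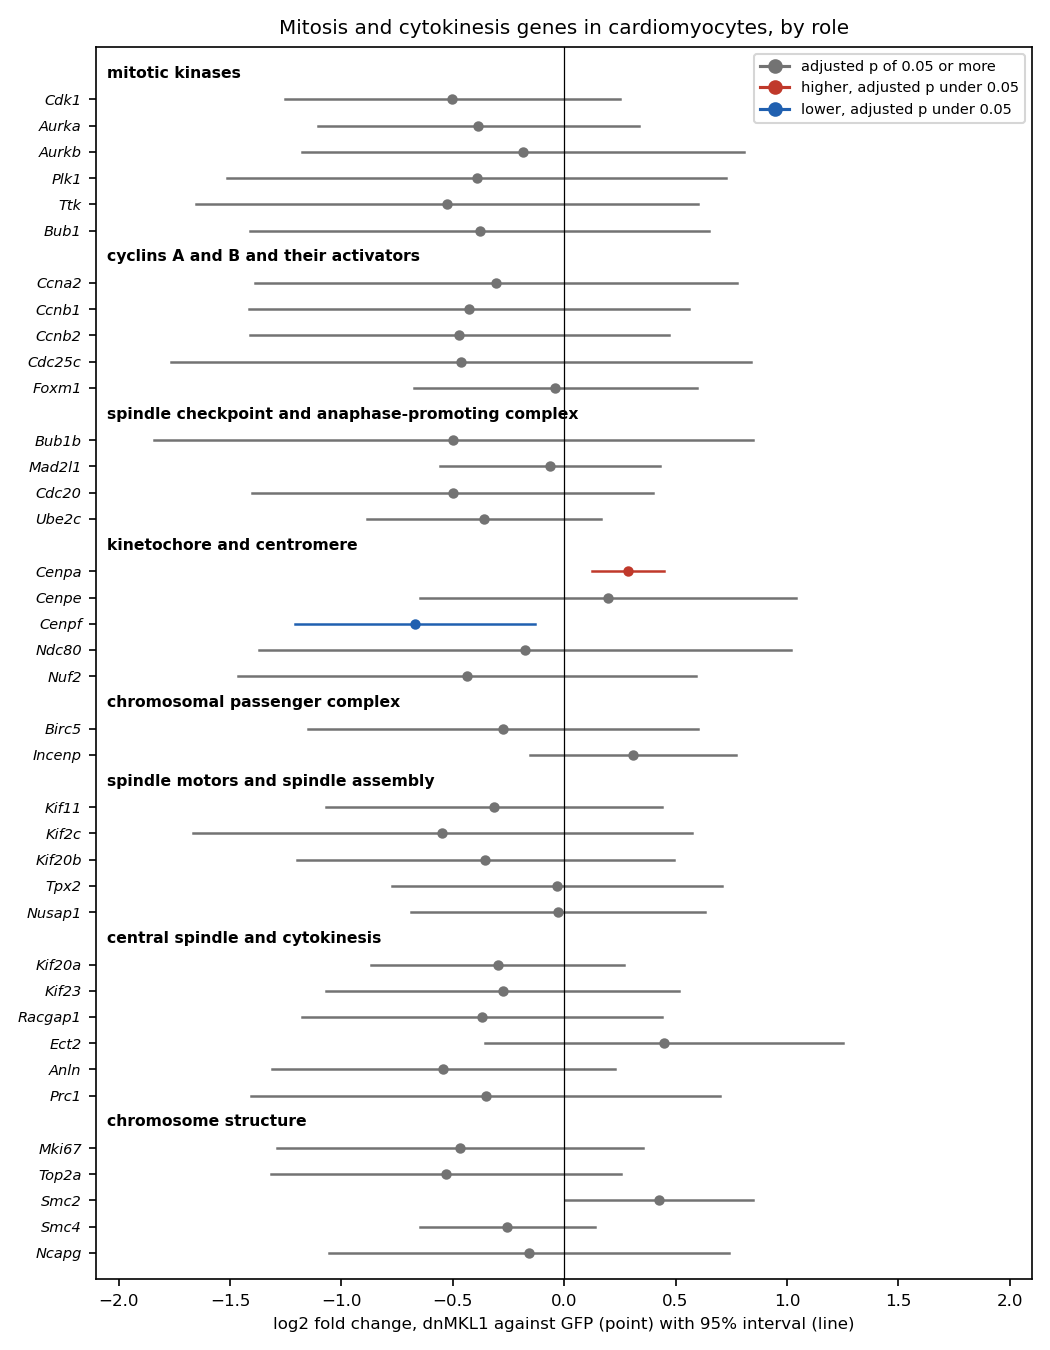
Log2 fold change of dnMKL1 against GFP (horizontal axis, points) with its 95% interval (lines) for the 38 members, grouped by role. The interval excludes 0 for Cenpa, Cenpf and Smc2, and Smc2 misses the adjusted threshold; 33 points lie to the left of 0.

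The promoters of the members carry the sequences known from mitotic genes. RefSeq promoter windows on GRCm38.p6 were matched for 30 members (not for Aurkb, Ccna2, Cdc25c, Foxm1, Incenp, Tpx2, Kif20a and Smc4), each 250 bases before to 50 after the annotated start. The CHR was searched as TTTGAA or TTCGAA and the CCAAT box as CCAAT, both on either strand and whether or not matches overlap. The following 6 promoters are shown because they hold the gene called lower (Cenpf), the member with the smallest p among the chromosome structure genes (Smc2), and 4 arrangements of both elements (Cdk1, Racgap1, Kif11 and Top2a). Each begins 120 bases before the start and ends 12 after it (Cdk1 ends at the start), and capitals mark CHR and CCAAT matches on either strand. Both CHR matches of Smc2 lie outside the stretch shown, beginning at -145 and 27 bases from the start.
Cenpf (chr1:189688075-189688206, minus strand): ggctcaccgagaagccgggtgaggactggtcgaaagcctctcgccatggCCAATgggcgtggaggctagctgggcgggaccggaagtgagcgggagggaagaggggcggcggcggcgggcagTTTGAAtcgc
Smc2 (chr4:52439101-52439232, plus strand): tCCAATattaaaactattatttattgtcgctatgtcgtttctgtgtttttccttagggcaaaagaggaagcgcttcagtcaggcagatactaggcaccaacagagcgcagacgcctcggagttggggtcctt
Cdk1 (chr10:69352913-69353032, minus strand): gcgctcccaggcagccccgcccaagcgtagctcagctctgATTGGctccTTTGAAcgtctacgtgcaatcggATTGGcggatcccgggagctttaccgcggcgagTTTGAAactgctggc
Racgap1 (chr15:99651645-99651776, minus strand): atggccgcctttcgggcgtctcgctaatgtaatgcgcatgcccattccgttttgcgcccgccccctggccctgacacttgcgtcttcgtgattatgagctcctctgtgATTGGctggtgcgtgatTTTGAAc
Kif11 (chr19:37376262-37376393, plus strand): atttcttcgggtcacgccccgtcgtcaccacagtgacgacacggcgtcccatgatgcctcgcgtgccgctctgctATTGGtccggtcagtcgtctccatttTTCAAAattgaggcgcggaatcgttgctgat
Top2a (chr11:99024178-99024309, minus strand): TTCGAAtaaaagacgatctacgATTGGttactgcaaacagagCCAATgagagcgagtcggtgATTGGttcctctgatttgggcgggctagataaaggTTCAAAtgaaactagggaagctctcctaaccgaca

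A CHR was found in 24 of the 30 windows (80.0%), beside 19.4% of the 27025 genes with a window of the same length. A CCAAT box was found in 22 (73.3%, beside 37.9% of all), and both together in 20 (66.7%, beside 7.70%). In 22 members a CHR began within 50 bases of the start, and 13 members had at least 2 CCAAT matches. Neither of these counts was made over all windows. Cenpa and Cenpf, the members called in opposite directions, each held 1 CHR just after the start and 2 CCAAT boxes. Mad2l1, Nuf2, Birc5 and Nusap1 held neither in this window. The CArG box, the SRF site, was found in 1 member (Kif20b, 3.33%), beside 1.57% of all windows. These matches describe letters in the window and were not tested as sites. Without the 50 bases after the start, a CHR was found in 12 members (40.0%) beside 17.4% of all.

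**Figure D2:**
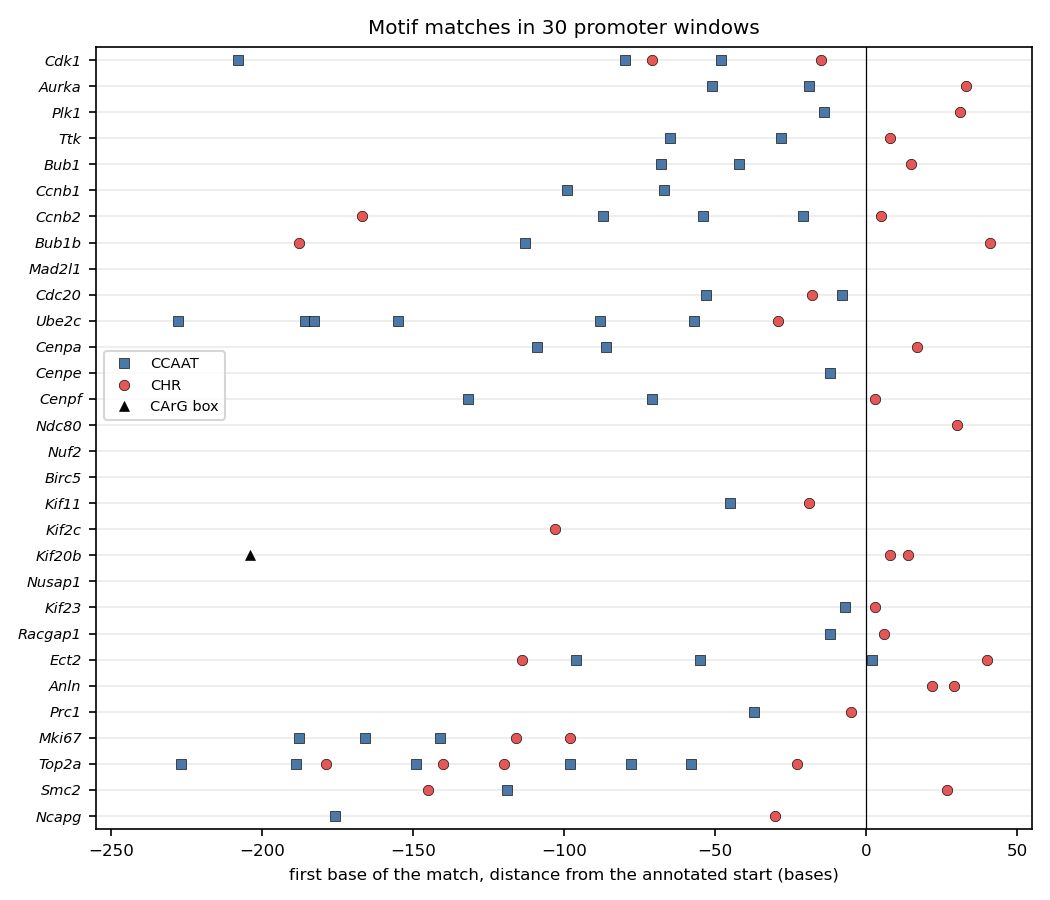
First base of each CHR (circles), CCAAT (squares) and CArG box (triangle) match, as its distance in bases from the annotated start (horizontal axis), in the 30 promoter windows matched. CHR matches gather around the start, within 50 bases in 22 members, and CCAAT matches lie mostly before it. Positions in all other windows were not compared.

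Kinetochore and centromere genes held both calls. Cenpa encodes the histone H3 variant that marks centromeres and lies at chr5:30666777-30674830 on the plus strand (GRCm38). In the authors' deposited table it rose, with implied group means (what base mean and fold change together give for each group) of 478 normalized counts in GFP and 584 in dnMKL1 libraries, a log2 fold change of 0.29 (SE 0.08, Wald test, adjusted p = 0.00227). Per kilobase of its longest transcript Cenpa had a base mean of 139, against 59.1 for Smc4, the next member in that order, and 4.04 for Cenpe, the lowest. Cenpf encodes a large protein of the outer kinetochore and the nuclear envelope and lies at chr1:189640606-189688086 on the minus strand. It fell in the authors' deposited table, from an implied 344 normalized counts in GFP to 216 in dnMKL1 libraries, a log2 fold change of -0.67 (SE 0.27, adjusted p = 0.0442). Its call was lost when the p-values of all genes were adjusted together (adjusted p = 0.0545) and under scaling to equal totals (log2 fold change -0.38, adjusted p = 0.257); over all alternatives the adjusted p ran from 0.0346 to 0.268. The other 3 genes of the group did not pass the test. Cenpe, a kinetochore motor, had a log2 fold change of 0.20 (SE 0.43) in the authors' deposited table, and the NDC80 complex subunits Ndc80 and Nuf2 had -0.18 (SE 0.61) and -0.44 (SE 0.52).

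None of the 6 mitotic kinase genes passed the test. Cdk1, the kinase that starts mitosis, had the highest base mean of the group and the smallest p, with a log2 fold change of -0.50 (SE 0.38, adjusted p = 0.341) in the authors' deposited table. The other 5 (Aurka and Aurkb, the Aurora kinases, Plk1, the Polo-like kinase, and Ttk and Bub1, the checkpoint kinases) had values from -0.53 for Ttk to -0.18 for Aurkb. All 6 were negative, and each SE was between 0.37 and 0.57, so that every interval included 0.

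The 5 genes of cyclins A and B and their activators did not pass the test either. Ccna2, cyclin A2, had the highest base mean of the group (106) and a log2 fold change of -0.31 (SE 0.55, adjusted p = 0.738) in the authors' deposited table. Ccnb2 had the smallest p (log2 fold change -0.47, SE 0.48, adjusted p = 0.505), and Ccnb1 had -0.43 (SE 0.50). Foxm1, a transcription factor that drives the mitotic wave, had -0.04 (SE 0.32), and Cdc25c, a phosphatase that activates CDK1, had -0.46 with the second largest SE of the members (0.66). The gene span of Foxm1 overlaps other annotated genes on its own strand, and whether they share reads was not examined.

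Of the 4 spindle checkpoint and anaphase-promoting complex genes, none passed. Mad2l1 (MAD2), which inhibits the complex, had the highest base mean of the group, 116, and a log2 fold change of -0.06 (SE 0.25, adjusted p = 0.891) in the authors' deposited table. Ube2c, the complex's ubiquitin-conjugating enzyme, had the smallest p (log2 fold change -0.36, SE 0.27, adjusted p = 0.329). Cdc20, its activator, had -0.50 (SE 0.46) and Bub1b (BUBR1) -0.50 (SE 0.69, the widest of all members). The group held both the widest and some of the narrower errors.

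The chromosomal passenger genes went in opposite directions without passing. Incenp, the scaffold that binds Aurora B, had a log2 fold change of 0.31 (SE 0.24, adjusted p = 0.342) in the authors' deposited table, and Birc5 (survivin) had -0.28 (SE 0.45). None of the 5 spindle motor and spindle assembly genes passed. Kif11, the plus-end motor that pushes spindle poles apart, had -0.32 (SE 0.38, adjusted p = 0.594) and Kif2c, a microtubule depolymerase, had the smallest p of this group (-0.55, SE 0.57, adjusted p = 0.521) in the authors' deposited table. Kif20b was at -0.35 (SE 0.43), and the spindle assembly factors Tpx2 and Nusap1 were at -0.03 each (SE 0.38 and 0.34).

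Among the 6 central spindle and cytokinesis genes none passed. Prc1, which bundles the antiparallel microtubules of the central spindle, had the highest base mean of the group (140) and a log2 fold change of -0.35 (SE 0.54, adjusted p = 0.686) in the authors' deposited table. Anln, the contractile ring scaffold anillin, had the smallest p (-0.54, SE 0.39, adjusted p = 0.312). The centralspindlin genes Racgap1 and Kif23 were at -0.37 (SE 0.41) and -0.28 (SE 0.40), the motor Kif20a at -0.30 (SE 0.29). Ect2, the exchange factor that activates RhoA at the division plane, was the largest positive value of all members, 0.45 (SE 0.41, adjusted p = 0.448), and did not pass.

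Chromosome structure genes included condensin subunits, a topoisomerase and Mki67, the gene of the Ki-67 protein of the chromosome surface. Smc2, a condensin core subunit at chr4:52439243-52488260, had the only other unadjusted p under 0.05 (log2 fold change 0.43, SE 0.21, adjusted p = 0.115, authors' deposited table) and was not called. Its partner Smc4, the highest of the group at a base mean of 255, had -0.25 (SE 0.20, adjusted p = 0.361), a sign that turned to 0.03 under scaling to equal totals, and the regulatory subunit Ncapg had -0.16 (SE 0.46). Top2a, which decatenates sister chromatids, had -0.53 (SE 0.40) and Mki67 -0.47 (SE 0.42). Scaled to equal totals, the calls were Cenpa, Smc2 (adjusted p = 0.00285) and Incenp (adjusted p = 0.0269), all higher.

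The intervals give the size of change that was not excluded. Of the 36 members not called, 25 had a 95% interval that still included a log2 fold change of -1, 3 had an interval that included 1, and 9 had intervals that stayed between -1 and 1. The span of 22 members from gene start to gene end overlaps that of another annotated gene. For 9 of them this is a protein-coding gene (for example Ube2c with Tnnc2 and Prc1 with Rccd1, both on the opposite strand). Whether their exons overlap or reads are shared was not examined, and the use of strand is not given in the sources used here.

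All members but Cenpa had a wider spread implied by the SE than the median gene of their level. The spread between libraries of a group implied by the SE, expressed as a coefficient of variation (CV) beyond counting error, had a median of 43.4% over the members. This CV is a parameter of the authors' fit and can differ from the spread of the counts themselves. The 200 genes nearest each member in base mean had a median CV of 18.8%, taken as the median over members, and 37 of 38 members lay above their neighbours' median. Bub1b had the widest implied CV, 74.2%, beside 16.8% for its neighbours. Cenpa was the exception, at 7.82% beside 10.3%, and with Cenpf (29.5%), Smc4 (21.1%) and Smc2 (20.7%) it stood at the lower end of the members.

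**Figure D3:**
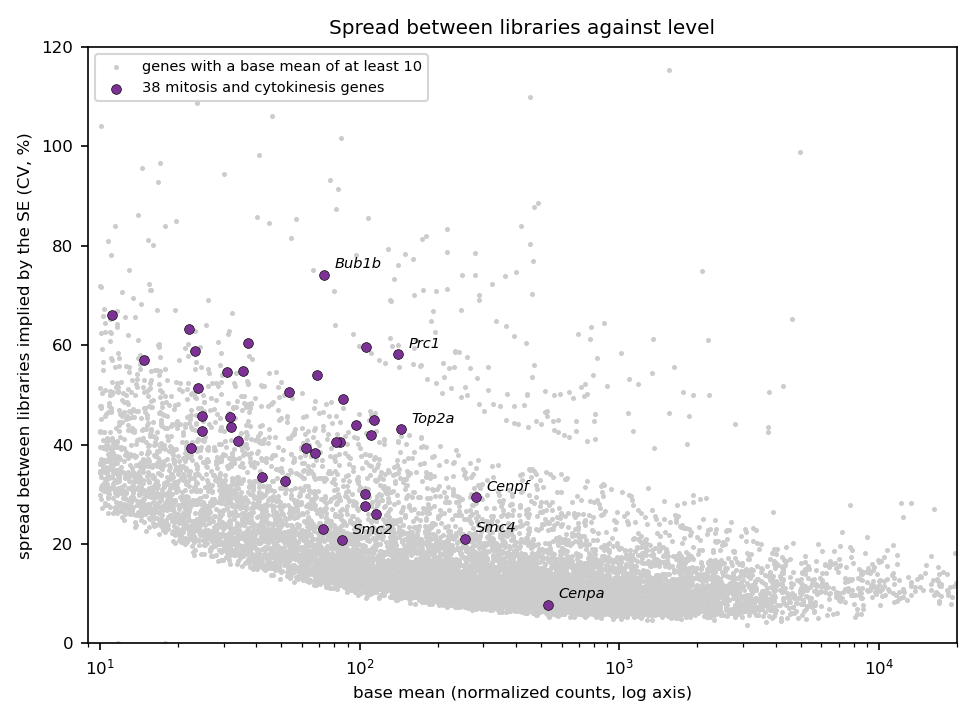
Coefficient of variation between libraries implied by the SE (vertical axis, percent) against base mean (horizontal log axis, normalized counts) for every gene whose base mean reached 10 (grey; values above 120% or beyond the axes are not drawn) and for the 38 members (purple). The members lie above most genes of their level except Cenpa at 7.82%.

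The table holds no column per library, but the whole read counts behind 6 members could be recovered exactly from the digits of their rows. Libraries are told apart here by the size factor, the authors' scale for depth, since they cannot be matched to replicate numbers. Size factors were 0.660, 0.662, 1.08, 1.22 and 1.28 in GFP and 0.809, 0.882, 0.921, 1.38 and 1.58 in dnMKL1 libraries, with estimated totals from 8803029 to 17228615 counts. Values below are normalized counts, the reads divided by the size factor, listed in that order.

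Cdk1 had 154, 98.2, 37.1, 137 and 66.9 normalized counts in the GFP libraries and 37.1, 127, 67.3, 58.8 and 57.7 in the dnMKL1 libraries. Ccnb1 had 121, 81.6, 24.1, 136 and 31.9 in GFP and 24.7, 107, 87.9, 28.3 and 46.3 in dnMKL1 libraries. In both genes the GFP libraries of size factor 0.660 and 1.22 and the dnMKL1 library of size factor 0.882 were high, the GFP library of size factor 1.08 and the dnMKL1 library of size factor 0.809 were lowest, and the groups overlapped. Means of Cdk1 were 98.8 ± 48.4 in GFP and 69.6 ± 33.9 in dnMKL1 libraries (SD, n = 5 each; exact permutation test on log2(value + 1), two-sided, p = 0.349, adjusted over 6 genes 0.752). For Ccnb1 they were 79.0 ± 50.7 and 58.7 ± 36.7 (SD, n = 5 each; exact permutation p = 0.595, adjusted 0.752). Both differences were smaller than 1 SD.

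Racgap1 had 177, 99.7, 54.8, 167 and 47.5 normalized counts in GFP and 51.9, 160, 97.7, 53.0 and 60.8 in dnMKL1 libraries. Nuf2 had 63.6, 45.3, 10.2, 67.3 and 17.9 in GFP and 18.5, 63.5, 34.7, 17.4 and 17.1 in dnMKL1 libraries. The GFP libraries of size factor 0.660 and 1.22 were again the 2 highest of their group and the dnMKL1 library of size factor 0.882 the highest of its group, and Nuf2 spanned 6.59-fold within GFP and 3.71-fold within dnMKL1 libraries. The group means of Racgap1 were 109 ± 61.0 and 84.6 ± 46.0 (SD, n = 5 each; exact permutation p = 0.571, adjusted 0.752), and those of Nuf2 were 40.9 ± 25.99 and 30.3 ± 19.99 (SD, n = 5 each; exact permutation p = 0.595, adjusted 0.752).

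Aurkb had 22.7, 25.7, 9.28, 52.5 and 16.3 normalized counts in GFP and 14.8, 49.9, 21.7, 13.8 and 12.7 in dnMKL1 libraries. Birc5 had 54.5, 31.7, 23.2, 51.7 and 13.2 in GFP and 18.5, 60.1, 23.9, 16.7 and 24.7 in dnMKL1 libraries. In the dnMKL1 group a single library, that of size factor 0.882, stood far above the other 4 in these genes. The means of Aurkb were 25.3 ± 16.5 and 22.6 ± 15.7 (SD, n = 5 each; exact permutation p = 0.786, adjusted 0.786), and those of Birc5 were 34.9 ± 17.9 and 28.8 ± 17.8 (SD, n = 5 each; exact permutation p = 0.627, adjusted 0.752). The smallest p this design allows is 0.00794.

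**Figure D4:**
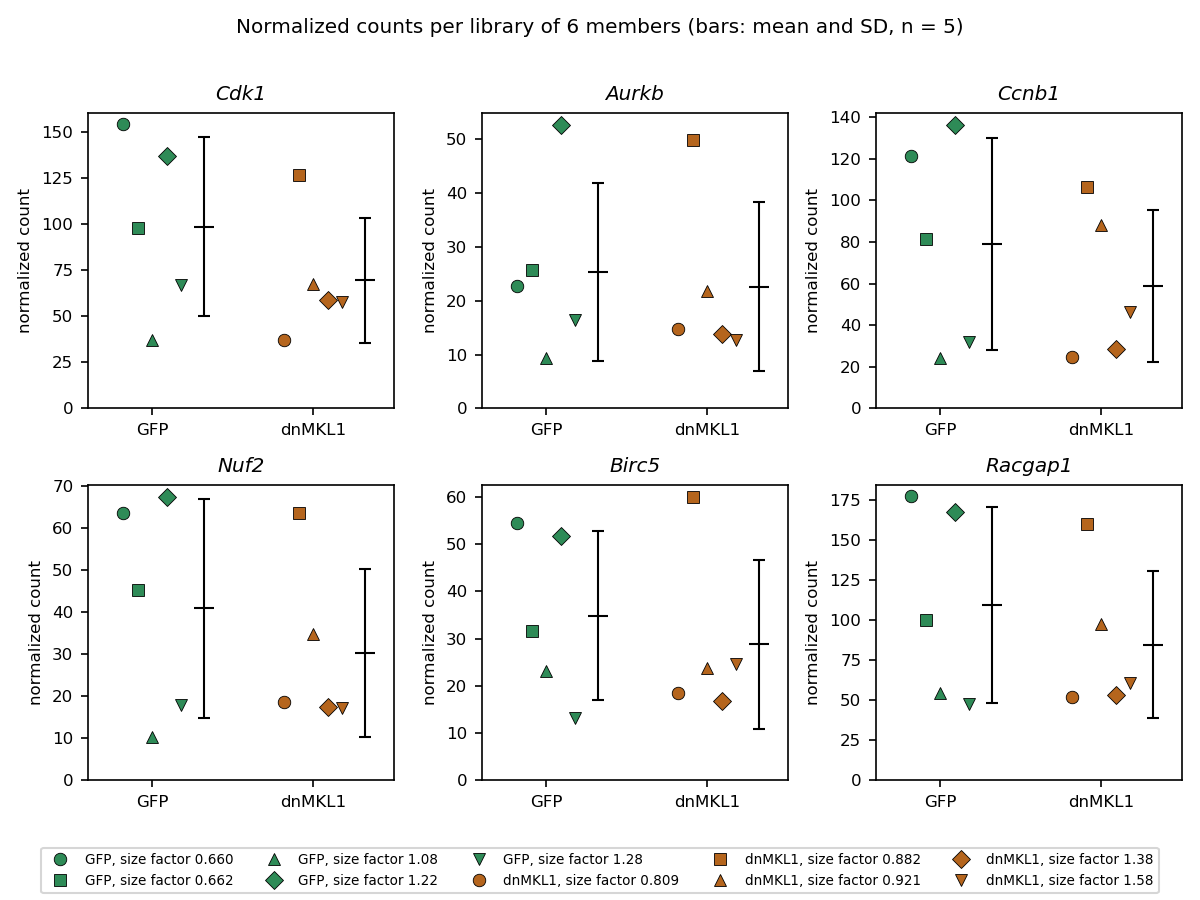
Normalized counts (vertical axes) of Cdk1, Aurkb, Ccnb1, Nuf2, Birc5 and Racgap1 in each of 5 GFP and 5 dnMKL1 libraries; symbols give the library by size factor, bars the mean and SD. The groups overlap in every panel, and the dnMKL1 library of size factor 0.882 is the highest of its group in all 6.

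The 6 genes were high and low in the same libraries. The dnMKL1 library of size factor 0.882 was the highest of its group in 6 of 6, and the GFP library of size factor 1.22 was among the 2 highest of its group in 6 of 6. Summed over the 6 genes, normalized counts ran from 159 to 612 in GFP and from 166 to 567 in dnMKL1 libraries, with means of 388 ± 214 and 295 ± 165 (SD, n = 5 each; exact permutation p = 0.492). The log2 ratio of these means, -0.40, ran from -0.78 without the dnMKL1 library of size factor 0.882 to -0.17 without the GFP library of size factor 1.22. It was -0.55 without both of those libraries (exact permutation p = 0.486 with n = 4 each, where the smallest possible p is 0.0286). Neither of the tested versions passed. Leaving out both was not planned. These libraries were picked after the data were seen, as those with the highest endothelial sums of their groups (given below).

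Other mitotic genes whose counts could be recovered followed the same libraries. Among 31 such genes outside the members (spindle, kinetochore, condensin, cytokinesis and mitotic entry genes), the GFP library of size factor 0.660 was among the 2 highest of its group in 30 and that of size factor 1.22 in 27, and the dnMKL1 library of size factor 0.882 was among the 2 highest in 26. Hmmr, a spindle-binding protein, had 168, 87.6, 25.99, 117 and 49.8 normalized counts in GFP and 32.1, 83.9, 63.0, 29.8 and 41.8 in dnMKL1 libraries. Lin9, a MuvB subunit, was by comparison even, between 65.4 and 81.8 in GFP and between 63.0 and 83.6 in dnMKL1 libraries. Hmmr and Lin9 were chosen after their values were seen. The 10 recovered DNA replication genes were high in the same libraries. The GFP libraries of size factor 0.660 and 1.22 were each among the 2 highest of their group in 9 of the 10. The dnMKL1 library of size factor 0.882 was so in 7, and that of size factor 1.58 in 6. In the libraries of size factor 0.660, 1.22 and 0.882 the replication genes averaged 1.33, 1.40 and 1.28 times their level over all libraries.

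Markers of endothelial cells, another cell type of the heart, were high in 2 of these libraries. Cldn5, a tight junction gene of endothelium, had 99.9, 107, 88.2, 275 and 76.3 normalized counts in GFP and 137, 231, 117, 133 and 129 in dnMKL1 libraries. Together with Icam2, Ramp2 and Sox17 (endothelial genes added after the data were seen), summed counts were 749 in the GFP library of size factor 1.22 and 228 to 300 (299.7) in the other 4, and 672 in the dnMKL1 library of size factor 0.882 and 301 to 368 in the other 4. The GFP library of size factor 0.660, in which the 6 members summed to 594, had an endothelial sum of 291. Genes of other cell types were also high in some of these libraries. Of 3 recovered macrophage genes, 2 were highest of their group in the GFP library of size factor 1.22 and 2 in the dnMKL1 library of size factor 0.882. The means over the 3 genes were 1.69 and 1.58 times their level over all libraries (SD over genes 1.06 and 0.61). Ptprc, 1 of the 3, had only 12 and 7 reads in these libraries. Cd68 had 10.7 normalized counts in the GFP library of size factor 1.22, beside a base mean of 14.4. Of 3 recovered fibroblast genes, 3 were highest of their group in the GFP library of size factor 1.22 (1.25 times their level) and 0 in the dnMKL1 library of size factor 0.882 (1.02 times). In bulk RNA fewer cells of a type and less RNA per cell cannot be told apart, and the part of endothelial, macrophage or fibroblast RNA in the members' levels was not tested. Between the groups, 0 of 12 endothelial markers were called in either direction in the authors' deposited table (0 with an unadjusted p under 0.05). Over all genes tested 34.1% were called. The summed implied means of the endothelial markers were 4678 in GFP and 4769 in dnMKL1 libraries. The median SE of their log2 fold changes was 0.32, so that differences of this size between the groups were not excluded.

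**Figure D5:**
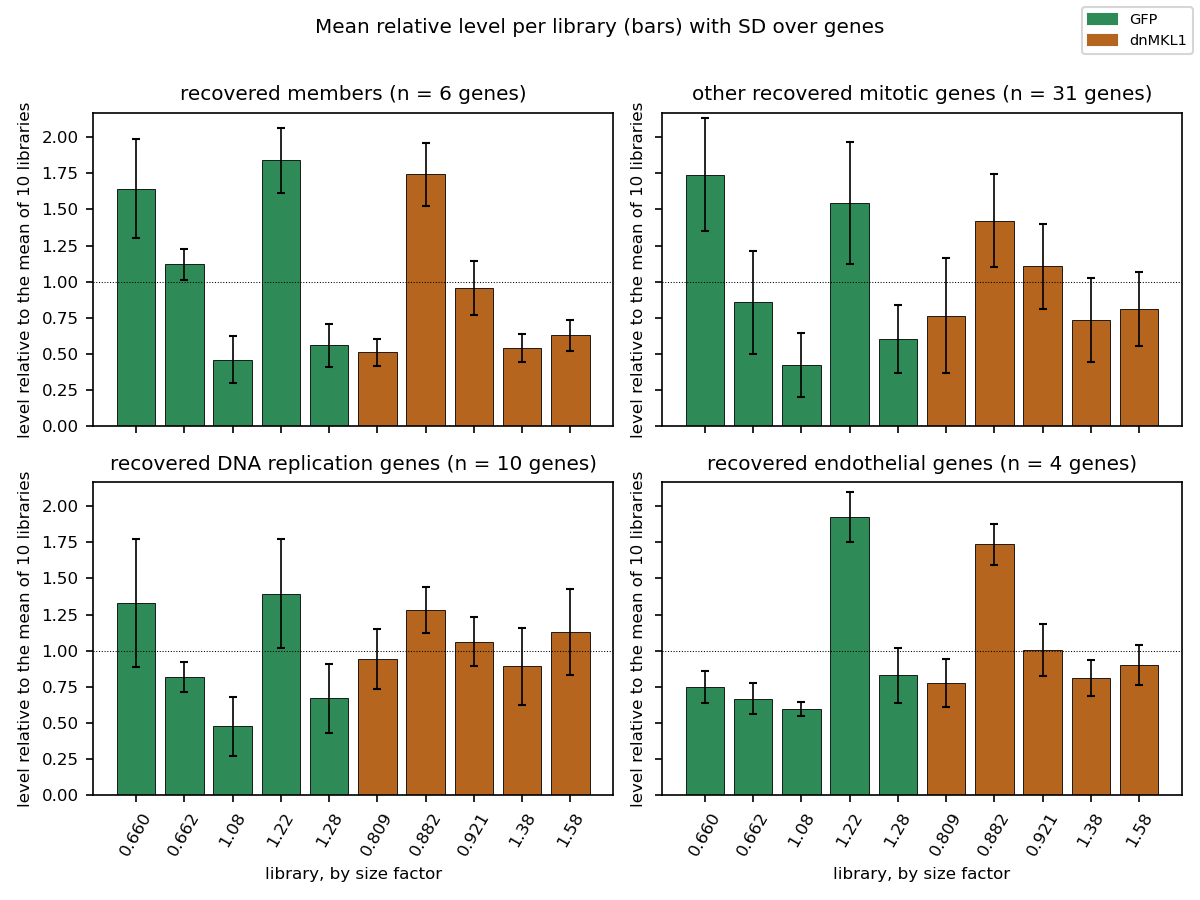
Level in each library relative to the gene's mean over 10 libraries (bars, mean over genes; error bars, SD over genes) for the 6 members, 31 other mitotic genes, 10 DNA replication genes and 4 endothelial genes whose counts were recovered; libraries are ordered by group and size factor. The members are high in 3 libraries, of size factors 0.660, 1.22 and 0.882, and the endothelial genes in 2 of them, 1.22 and 0.882. The DNA replication genes are highest in the same 3 libraries.

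Markers of other cell types and of cardiomyocytes were measured in the same table. The 10 cardiomyocyte markers had summed implied means of 1500210 normalized counts in GFP and 838514 in dnMKL1 libraries, and 6 of them fell, led by Actc1 (log2 fold change -1.55, SE 0.15, adjusted p = 7.67e-24, authors' deposited table), the cardiac actin gene. Of the 12 fibroblast markers 5 rose and none fell, with sums of 5245 and 8919, and of the 9 mural markers 3 rose and 1 fell, with sums of 18254 and 15947, where 16.6% of all genes were called higher and 17.4% lower. Acta2, the mural marker that fell, had implied means of 10454 in GFP and 4999 in dnMKL1 libraries. Abcc9, which was not called, had 6332 and 7773, so that Acta2 and Abcc9 held most of the mural sums. The log2 fold changes of the 8 mural markers other than Acta2 were positive. Scaled to equal totals, 9 fibroblast markers were called higher and 0 lower, 5 mural markers higher and 1 lower, and 1 cardiomyocyte marker higher and 4 lower, where 40.4% of all genes were called higher and 6.6% lower. The 10 macrophage markers in the table summed to 179 and 154 with 1 called higher, and of the 5 erythroid genes 2 were listed at 0 and 0 were called. The part of these lists in the members' values was not tested. Mkl1 itself, which the vector's insert derives from, was at an implied 83.9 normalized counts in GFP and 74899 in dnMKL1 libraries in the authors' deposited table, and the direction of all comparisons is read from it.

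Further genes of mitosis outside the members held few calls on the authors' scaling and more when scaled to equal totals. Of 32 other spindle and checkpoint genes 2 rose and 1 fell in the authors' deposited table. Sgol2, a protector of centromeric cohesion, fell (log2 fold change -0.56, SE 0.16, adjusted p = 0.00223). Mad1l1, the MAD2 anchor at kinetochores, rose (0.42, SE 0.12, adjusted p = 0.00261), and so did Psrc1, a spindle protein (1.98, SE 0.67, adjusted p = 0.0126). Psrc1 had few counts, with a base mean of 6.49 and implied means of 2.62 in GFP and 10.4 in dnMKL1 libraries. Of 27 other kinetochore genes 1 rose, Mis12 (0.37, SE 0.11, adjusted p = 0.00228), and 1 fell, Pmf1 (-0.43, SE 0.15, adjusted p = 0.0151), both of the MIS12 complex. Of 12 other condensin and cohesin genes 2 fell, the cohesin subunit Rad21 (-0.27, SE 0.07, adjusted p = 0.00148) and the condensin subunit Ncapd2 (-0.38, SE 0.11, adjusted p = 0.00367). These shares stand beside the 16.6% of all genes called higher and the 17.4% called lower. Under scaling to equal totals Mad1l1, Psrc1 and Mis12 remained called, and Sgol2, Pmf1, Rad21 (0.02, a turned sign) and Ncapd2 were no longer called. That scaling called 8 spindle and checkpoint genes, 5 kinetochore genes and 5 condensin and cohesin genes higher and 0 of these lists lower. Over all genes it called 40.4% higher and 6.6% lower.

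Cytokinesis genes outside the members held 6 calls. Of 22 such genes 5 rose (22.7%, beside 16.6% of all genes) and 1 fell (4.55%, beside 17.4%), led in the authors' deposited table by Myh9 (log2 fold change 1.32, SE 0.19, adjusted p = 3.37e-11) and Myh10 (1.22, SE 0.24, adjusted p = 4.75e-06), the nonmuscle myosin heavy chains of the contractile ring, which also serve the cytoskeleton of cells that do not divide. Vps4a, an ATPase of membrane abscission, fell (-0.30, SE 0.07, adjusted p = 0.000434). Under scaling to equal totals Vps4a was at -0.01 and no longer called, and 10 of the 22 genes were called higher and 0 lower. That scaling called 40.4% of all genes higher and 6.6% lower.

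Of 19 other regulators of mitotic entry and exit 0 rose and 3 fell, 15.8% beside the 17.4% of all genes called lower. The 3 were Arpp19 (log2 fold change -0.37, SE 0.10, adjusted p = 0.000983), whose product restrains the phosphatase PP2A in mitosis, the CDK1-inhibiting kinase Wee1 (-0.37, SE 0.10, adjusted p = 0.00137) and the CDK-activating phosphatase Cdc25a (-0.44, SE 0.13, adjusted p = 0.00326), all in the authors' deposited table. Of 13 anaphase-promoting complex subunits 1 rose, Cdc27 (0.53, SE 0.13, adjusted p = 0.000184), and of 13 DREAM and MuvB genes 1 fell, E2f4 (-0.32, SE 0.09, adjusted p = 0.00176). Under scaling to equal totals Arpp19, Wee1, Cdc25a and E2f4 were no longer called (adjusted p from 0.338 to 0.775). That scaling called 1 entry and exit regulator, 8 anaphase-promoting complex subunits and 3 DREAM and MuvB genes higher and 0 of these lists lower. Over all genes it called 40.4% higher and 6.6% lower.

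Earlier steps of the cycle were called in both directions. Of 53 DNA replication genes 6 rose (11.3%, beside 16.6% of all genes) and 4 fell (7.55%, beside 17.4%) in the authors' deposited table, with a median log2 fold change of 0.13. The genes that rose were Mcm4, Mcm6 and Mcm7 of the replicative helicase, the clamp Pcna, the clamp loader subunit Rfc5 and the origin recognition subunit Orc6, with log2 fold changes from 0.30 for Pcna to 1.01 for Mcm6 (authors' deposited table); these 6 were named after their values were seen. Those with the smallest adjusted p all fell: the dUTPase Dut (-0.61, SE 0.11, adjusted p = 1.64e-06), the uracil glycosylase Ung (-1.14, SE 0.24, adjusted p = 1.98e-05) and the replication protein A subunit Rpa3 (-0.56, SE 0.15, adjusted p = 0.0014). Of 21 G1 genes tested 4 rose (19.0%) and 2 fell (9.52%). Cdkn1a (p21), an inhibitor of cyclin-dependent kinases, rose from an implied 412 to 2875 normalized counts (log2 fold change 2.80, SE 0.24, adjusted p = 2.91e-29, authors' deposited table). E2f6, an E2F repressor, fell (-0.57, SE 0.07, adjusted p = 2.62e-13), and Ccnd2, cyclin D2, rose (0.49, SE 0.12, adjusted p = 0.00033). Under scaling to equal totals Rpa3 was no longer called (adjusted p = 0.134), 25 replication genes were called higher and 2 lower, and 5 G1 genes higher and 1 lower. These counts stand beside the 40.4% of all genes called higher and the 6.6% called lower under that scaling. Whether the replication or G1 genes differ from the mitotic ones was not tested.

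Of the SRF and MKL genes, Srf fell (log2 fold change -0.80, SE 0.10, adjusted p = 2.55e-13) and Mkl2, the paralogue of Mkl1, rose (0.43, SE 0.08, adjusted p = 3.15e-06) in the authors' deposited table.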

How the data were processed

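RNA was sequenced from sorted cardiomyocytes of 5 GFP and 5 dnMKL1 mice. Per the submitters' processing notes the tools were CASAVA 1.8, STAR 2.5.3a, featureCounts and Subread 1.5.2, with build mm10; the use of strand and the annotation are not given in the sources used here. The authors deposited a comparison with the columns of a DESeq2 result, per the file headers. The deposited base mean is a signal in normalized counts. The authors' fold change and SE are log2 values. The Wald statistic is a score the authors deposited beside them, and each deposited p-value and adjusted p-value (Benjamini-Hochberg over 14056 genes) belongs to it. The table gives no counts per library, so the planned use of the authors' Wald test was kept for all genes; permutation tests were run only where counts could be recovered.

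Calls use the deposited adjusted p under 0.05; 95% intervals are normal intervals from the SE. The direction was read from Mkl1. The spread is the negative binomial dispersion that gives the SE, computed above a base mean of 10. A gene seen as 1 read in a single library reveals that library's size factor. Rows deposited with about 15 digits (8 of the 38 members) allowed a search for whole counts per library, which had to give the base mean, the SE and, within 2e-14, the log2 fold change of a 2-group fit. It ran up to a base mean of 140 (lower for lists other than members and endothelial genes), which left out Cenpf and Top2a. For each of the 60 genes searched, 6 of them members, 1 solution was found. The search stopped at the first stretch that held a solution, so that further solutions were not looked for. In simulated data 6 of 6 count sets with base means from 18.5 to 69.6 came back exactly. Genes outside that range, such as Cdk1 (84.2), Racgap1 (97.0) and Cldn5 (139), were not covered by the simulation. Permutation tests were exact and two-sided on log2(normalized count + 1). Reads carry no molecular identifiers, so amplification error is not covered.

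The members and lists were chosen with earlier results of these data known. Full values were given for members with a p or adjusted p under 0.05 and, in each role, for the highest base mean and the smallest p; in each other list for up to 3 genes with the smallest adjusted p. Lengths and positions came from GENCODE M21 (GRCm38) and promoters from RefSeq (GRCm38.p6); Python 3.11.15, numpy 2.4.6 and scipy 1.17.1 were used. Alternatives tried were thresholds, adjustment sets, filters on low base means, scaling, the promoter window and libraries left out.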

Additional observations from a re-analysis of the deposited data

Results flagged for a closer look

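In groups of 5 libraries, values were marked where the highest or lowest library's gap to the next took a share of the whole range above Dixon's 95% value; chance marks about 1 in 20 groups, and 22 groups were looked at. Among members, the dnMKL1 library of size factor 0.882 stood apart in Birc5 (60.1 normalized counts, next highest 24.7) and in Aurkb (49.9, next 21.7). The same library stood apart in the endothelial genes Cldn5 (231, next 137) and Ramp2 (130.3, next 68.4). The GFP library of size factor 1.22 stood apart in Cldn5 (275, next 107), Icam2 (244, next 115.2) and Ramp2 (161, next 69.3). All 7 marks fall on these 2 libraries. Icam2, Ramp2 and Sox17 were added after the data were seen, and groups of genes measured in the same libraries are not independent. The number of marks can therefore not be set against the 1 in 20 of chance. The part of endothelial RNA in the members' values was not tested.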

How the results depend on the processing

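Settings were compared for the 50 genes given full values by the naming rule, which leaves out other members whose fold changes are printed. An absolute log2 fold change of at least 1 ended the call of 24 of these genes. Scaling to equal totals ended 10 of their calls, added 2 and turned 3 signs. Over all 38 members that scaling turned 10 signs. Members called lower went from 1 to 0, and those called higher from 1 to 3, under scaling to equal totals, with or without Mkl1 in the totals. Members called lower were also 0 at an adjusted p under 0.01 and with the adjustment over every gene with a p-value, and at an absolute log2 fold change of at least 1 the members called were 0 in both directions. In the other lists (213 genes, cell type markers and SRF genes left out) 19 were called higher and 15 lower. Over all genes tested 16.6% were called higher and 17.4% lower. At an absolute log2 fold change of at least 1, the counts in the other lists were 5 and 1. The shares of all genes called at the stricter thresholds and with the wider adjustment were not counted. Under scaling to equal totals, which called 40.4% of all genes higher and 6.6% lower, the counts in the other lists were 70 and 3. With Mkl1 left out of the totals they were 71 and 3. Among the 50 genes, signs turned under scaling to equal totals for Smc4 (0.033), Mad2l1 (0.22) and Rad21 (0.021). With Mkl1 left out of the totals these were 0.043, 0.23 and 0.030, and Vps4a also turned (0.000916). The 2 scalings add 0.29 and 0.30 to every log2 fold change. The members' median, -0.35, was -0.0642 under scaling to equal totals and -0.0542 with Mkl1 left out, and stayed at -0.36 to -0.35 under median centring and the filters; the weighted mean in its place was -0.0218, and -0.19 without Cenpa. Without the 50 bases after the start, the share of members with a CHR was 40.0% and with both elements 36.7%. Leaving out 1 library in turn, the log2 ratio of the 6 members' sum ran from -0.78 to -0.17; the ratio of medians was -0.80. No paired analysis was possible because the recovered libraries carry no replicate number. Dropping 1 library could not be tried for the other 32 members.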
